A study of Mus musculus with 6 samples.

Results

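The ISG15 conjugation system is described here through 5 genes: the ubiquitin-like modifier Isg15, the activating enzyme Uba7, the conjugating enzyme Ube2l6, the ligase Herc6 and the protease Usp18. They were chosen by symbol. Each has 1 probe set with exactly 1 gene symbol in the array's annotation, so all 5 members were found among 22180 genes with such a probe set. All 5 also passed the filter on dim genes, which left 18458 genes tested.

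The values come from 6 samples of mouse cells, each on 1 Mouse Gene 2.0 ST array, which gives 1 intensity per probe set. Per the labels, every animal had been given Th9 cells, a kind of helper T cell that makes interleukin 9, and tissue was taken 10 days later. Inflammatory monocytes, gated as CD11b+, CD11c- and Ly6C-high, were sorted from spleen (n = 3 arrays) and from tumor (n = 3 arrays). The comparison therefore sets tumor monocytes beside spleen monocytes after Th9 transfer, and no untreated group was analysed here. The sources used here do not give the strain of mouse, its age and sex, the kind of tumor, the antigen of the Th9 cells or whether animals were pooled. The labels do not say whether the 3 samples of a group are 3 animals, so the p-values measure only how these samples vary, and that variation may be technical.

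ISG15 is made in large amounts after cells sense interferon. It is joined to lysines of other proteins by a cascade that mirrors ubiquitin: the E1 enzyme UBA7 activates it, the E2 enzyme UBE2L6 carries it, and an E3 ligase, in mouse mainly HERC6, places it on newly made proteins. USP18 takes ISG15 off again and, apart from that activity, sits at the type I interferon receptor and dampens its signal. Free ISG15 can also leave the cell and act on lymphocytes. All of these genes are known targets of interferon.

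Promoter stretches are shown first, because genes of this system are known to be switched on through interferon-stimulated response elements. RefSeq promoter windows (build GRCm38.p6, 250 bases before to 50 bases after the start) were found for 4 of the 5 members: Isg15, Uba7, Ube2l6 and Herc6. The 250 bases before the start are printed for the members whose window held a match, Isg15 (chr4:156200819-156201068, minus strand) and Uba7 (chr9:107975317-107975566, plus strand). Capitals mark matches, on either strand, to the response element core, which is GAAA followed after any 2 bases by GAAA, or to the shorter interferon regulatory factor core AANNGAAA, which lies inside it.
Isg15: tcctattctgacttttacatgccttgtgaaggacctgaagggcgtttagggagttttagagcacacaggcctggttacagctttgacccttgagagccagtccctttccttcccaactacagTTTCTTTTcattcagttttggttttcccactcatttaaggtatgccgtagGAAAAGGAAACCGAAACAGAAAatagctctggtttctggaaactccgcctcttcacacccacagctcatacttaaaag
Uba7: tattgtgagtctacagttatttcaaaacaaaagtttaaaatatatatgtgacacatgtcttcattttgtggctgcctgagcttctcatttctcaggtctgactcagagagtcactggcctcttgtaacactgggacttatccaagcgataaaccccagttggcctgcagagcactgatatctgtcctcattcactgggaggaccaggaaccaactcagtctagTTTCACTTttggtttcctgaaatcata
The Isg15 stretch held 3 overlapping matches to the response element core between 78 and 57 bases before the start (GAAAAGGAAA, GAAACCGAAA and GAAACAGAAA). It held 1 further match to AANNGAAA, on the opposite strand, 128 to 121 bases before the start. The Uba7 stretch held 1 match to AANNGAAA on the opposite strand, 27 to 20 bases before the start, and 0 to the longer core. In the windows of Ube2l6 and Herc6 there were 0 matches to either, and TTCNNNGAA, the core bound by STAT factors, was matched in 0 of the 4 windows. Among all 32851 windows of the same length, 3.44% held the response element core, 23.9% held AANNGAAA and 8.30% held TTCNNNGAA. Of genes called higher in tumor that have a window, 13.2% (109 of 823) held the response element core, beside 3.58% (511 of 14267) of all genes tested. A match describes letters only.

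All 5 members were higher in tumor monocytes than in spleen monocytes. The rise was largest for the modifier itself, at 17.1-fold, and reached 9.08-fold for the ligase, 6.46-fold for the protease, 5.44-fold for the E2 and 3.80-fold for the E1. Each was called by limma at an adjusted p under 0.05, with adjustment over all genes tested, and 0 were lower, called or at an unadjusted p under 0.05. Of all genes tested, 5.73% were called higher and 4.85% lower, 10.6% in all, and 3.74% were called higher by at least 2-fold, as all 5 members were. The median difference over the 5 members was 2.69, against -0.05 over all genes tested. Differences are tumor minus spleen on the scale log2(intensity + 1), given ± SE with the 95% confidence interval, and folds are taken on that scale.

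**Figure D1:**
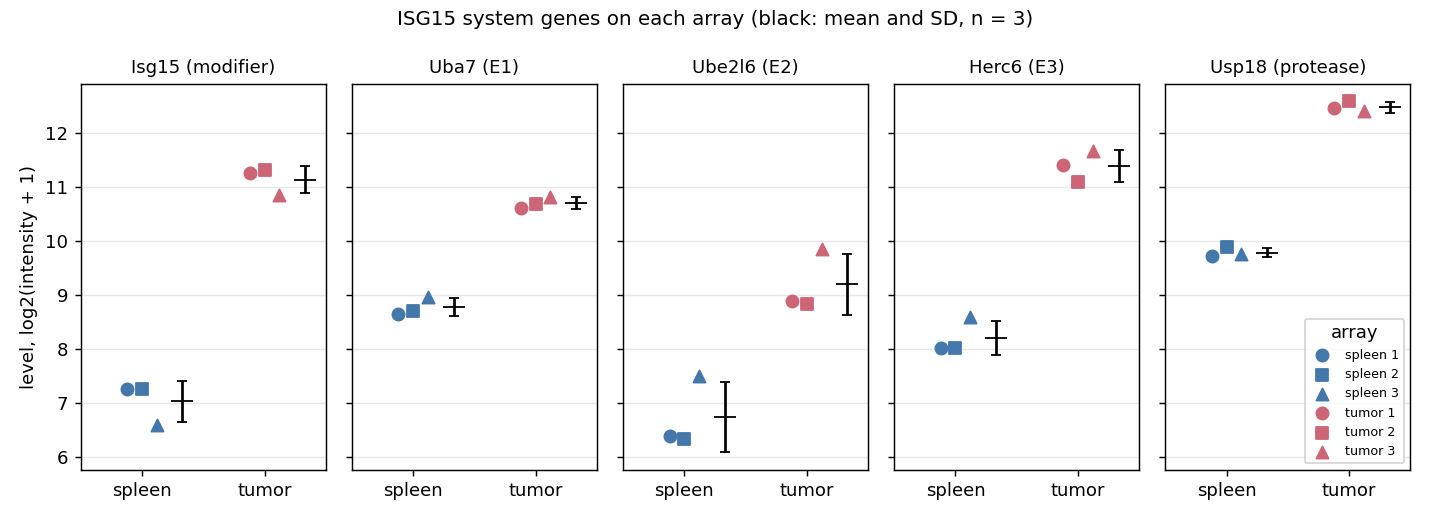
Level of each gene, as log2(intensity + 1), on the 3 spleen arrays (blue) and 3 tumor arrays (red); symbols mark the array number and black bars the mean and SD of each group. In every panel the 3 tumor points lie above the 3 spleen points, and the arrays numbered 3 (triangles) lie low for Isg15 and high for Ube2l6 in both groups.

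Isg15, the modifier, had intensities of 152, 152 and 95.2 on spleen arrays 1 to 3 and of 2441, 2522 and 1830 on tumor arrays 1 to 3. The groups lie far apart, and array 3 was the lowest in each. As log2 levels the means were 7.03 ± 0.38 in spleen and 11.13 ± 0.25 in tumor (SD, n = 3 each). The difference was 4.10 ± 0.23 (3.58 to 4.62, limma adjusted p = 1.33e-05), and only 0.2% of the genes tested rose by more. Spleen arrays 1 and 2 hold exactly the same deposited value for Isg15, so the spleen spread rests on array 3. Without spleen 1 the difference was 4.21 (adjusted p = 8.64e-05).

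Uba7, the E1 that activates ISG15, had intensities of 400.0, 415 and 497 in spleen and of 1554, 1623 and 1795 in tumor. Values were tight within each group and did not overlap. The log2 level went from 8.77 ± 0.17 to 10.69 ± 0.11, a difference of 1.92 ± 0.15 (1.57 to 2.27, adjusted p = 0.000106). This was the smallest rise of the 5.

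Ube2l6, the E2 that takes ISG15 from UBA7, had intensities of 83.1, 80.2 and 179 in spleen and of 474, 454 and 916 in tumor. Array 3 read about as far above its group mates in spleen as in tumor, so the groups spread widely without overlapping. The log2 level went from 6.74 ± 0.65 to 9.19 ± 0.57, a difference of 2.44 ± 0.37 (1.60 to 3.29, adjusted p = 0.00395). Ube2l6 had the widest interval of the 5, and with the array number as a block its adjusted p was 2.78e-06 at the same difference.

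Herc6, the main ISG15 ligase of the mouse, had intensities of 258, 258 and 380.4 in spleen and of 2703, 2179 and 3239 in tumor. Here too spleen arrays 1 and 2 hold the same deposited value, and tumor 3 was the highest of all. The log2 level went from 8.20 ± 0.32 to 11.38 ± 0.29, a difference of 3.18 ± 0.22 (2.69 to 3.68, adjusted p = 4.35e-05). Without spleen 1 it was 3.09 (adjusted p = 0.000351).

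Usp18, the protease that removes ISG15 and restrains the interferon receptor, had intensities of 833.9, 940.3 and 869 in spleen and of 5611, 6114 and 5359 in tumor. It varied least within groups. The log2 level went from 9.78 ± 0.09 to 12.47 ± 0.10, a difference of 2.69 ± 0.14 (2.37 to 3.01, adjusted p = 9.98e-06).

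For each of the 5 members every tumor array lay above every spleen array, as it did for 9.81% of all genes tested, while in 15.6% every tumor array lay below every spleen array. An exact permutation test of a single gene in this design gives p = 0.1 at the smallest, and each member was at that value. In cells measured in bulk, fewer cells of a type and less RNA per cell cannot be told apart.

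**Figure D2:**
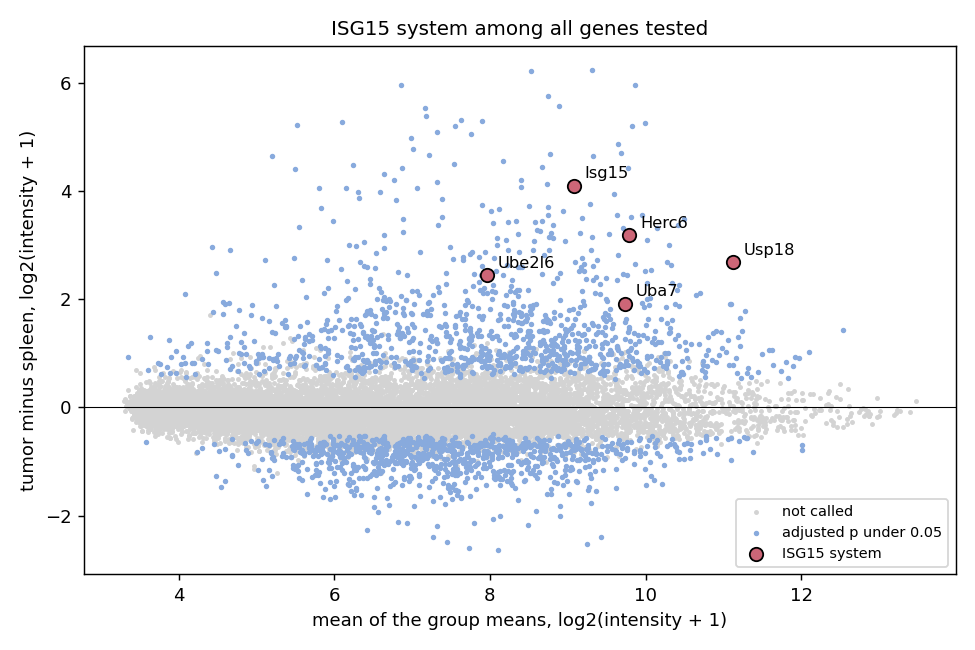
Difference, tumor minus spleen, against the mean level of each of the 18458 genes tested, both on the log2(intensity + 1) scale; blue points were called at an adjusted p under 0.05 and red points are the 5 members. The members lie between 1.92 and 4.10, and 1.31% of the genes tested rose further than Uba7, the lowest of them.

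The arrays numbered 3 differ from those numbered 1 and 2. Among the 4 arrays numbered 1 and 2, each pair shares between 2449 and 3534 exactly equal values of 41345, while arrays 1 and 2 share 0 with either array 3. The median gene read 0.29 higher on spleen 3 than on the mean of spleen 1 and 2, and 0.28 higher in tumor. Ube2l6 was shifted further, by 1.12 in spleen and 0.98 in tumor, and Herc6 by 0.56 and 0.42. Uba7 moved by 0.29 and 0.18. Isg15 moved the other way, by -0.67 in spleen and -0.44 in tumor, and Usp18 hardly moved, by -0.03 and -0.13. Since each number holds a tumor and a spleen array, the differences can be read within a number.

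**Figure D3:**
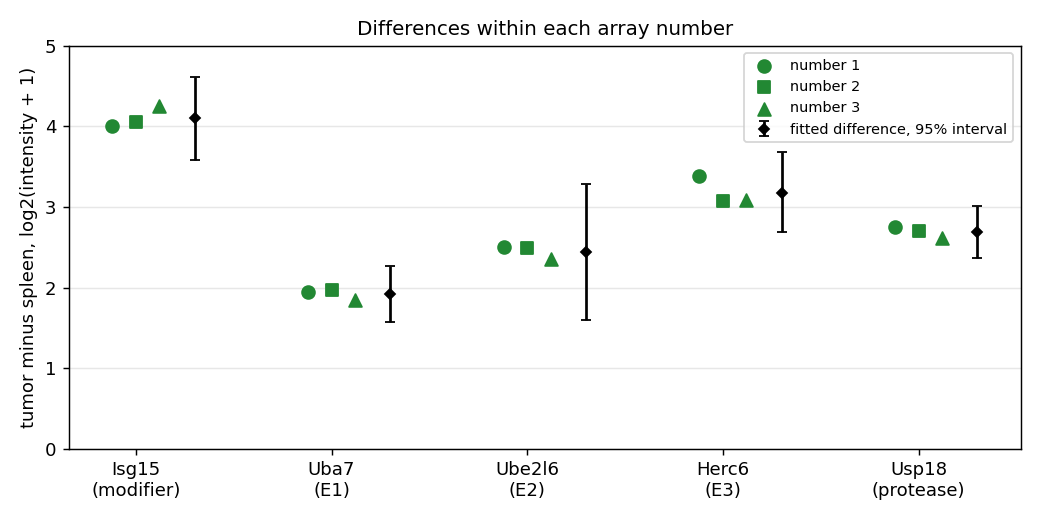
Tumor minus spleen within each array number (green symbols) for the 5 members, on the log2(intensity + 1) scale, beside the fitted difference with its 95% confidence interval (black). Within a gene the 3 values differ by little, and the order of the genes is the same for each number.

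Within numbers 1, 2 and 3 the difference of Isg15 was 4.0, 4.05 and 4.25. That of Herc6 was 3.39, 3.07 and 3.09. That of Usp18 was 2.75, 2.70 and 2.62. The conjugation enzymes at the lower end were as even, with Ube2l6 at 2.50, 2.49 and 2.35 and Uba7 at 1.95, 1.97 and 1.85. Among the arrays numbered 1 and 2 alone the 5 differences lay between 1.96 and 4.02, and all 5 members were called (largest adjusted p = 0.00396, for Herc6). With the array number as a block all 5 were called as well, with Uba7 at the largest adjusted p (8.44e-06). The block raised the calls over all genes from 1057 to 2153 higher and from 896 to 3195 lower.

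Whether the members rose by unequal amounts was asked for all 10 pairs through the difference of their log2 values on each array. The rise of Isg15 exceeded that of Uba7 by 2.18 ± 0.38, that of Ube2l6 by 1.66 ± 0.76 and that of Usp18 by 1.41 ± 0.24, and in each case the tumor and spleen arrays did not overlap. It exceeded that of Herc6 by 0.92 ± 0.51, with overlap. Neighbours further down the order overlapped too: Herc6 rose by 0.49 ± 0.30 more than Usp18, Ube2l6 minus Usp18 was -0.25 ± 0.54, and Uba7 minus Ube2l6 was -0.52 ± 0.39. Uba7 rose less than Herc6 (-1.26 ± 0.16) and Usp18 (-0.77 ± 0.15), and Ube2l6 less than Herc6 (-0.74 ± 0.28), without overlap. This test treats the arrays as unpaired, and in it no pair could pass the threshold: the smallest exact permutation p it can give is 0.1 (6 of 10 pairs reached it), and the adjusted p over 10 pairs was 0.167 or more. Differences taken within an array number were more even. Uba7 minus Ube2l6 was -0.54, -0.52 and -0.50 for numbers 1, 2 and 3, and Ube2l6 minus Usp18 was -0.25, -0.21 and -0.27. Each of the 10 pairs kept its sign in all 3 numbers, and a paired test of these differences was not run. Equal numbers are not shown to be matched samples for numbers 1 and 2. Across genes, deviations of spleen 1 correlated at 0.36 with those of tumor 1 and at 0.47 with those of tumor 2. Within each array number, Isg15 rose by more than each of the other members, by at least 0.62.

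The genes of interferon signalling included several called rises, all outside the receptor. Of 10 tested genes of the interferon receptor, JAK-STAT and IRF list, 5 were called higher and 0 lower, or at an unadjusted p under 0.05 by limma 6 and 0, with a median difference of 1.03. Irf7, the factor that amplifies interferon production, was higher by 4.42 ± 0.16 (adjusted p = 2.24e-06), the feedback inhibitor Socs1 by 2.78 ± 0.21 and Stat2, the partner of USP18 at the receptor, by 2.69 ± 0.22. The list's remaining called genes, picked out once values were known, were Irf1 (1.80 ± 0.15) and Irf9, the DNA-binding part of the complex that reads response elements (1.52 ± 0.22). The receptor chains were not called: Ifnar1 stood at 0.14 ± 0.19 (-0.29 to 0.57) and Ifnar2, to which USP18 binds, at -0.01 ± 0.21 (-0.50 to 0.48). Jak1 stood at 0.00 ± 0.16 and Irf3 at -0.18 ± 0.17.

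The genes of proteins reported to carry ISG15 included many that were higher as RNA. Neither these proteins nor ISG15 joined to them were measured. Of 18 tested genes on this list, 8 were called higher and 1 lower, with a median of 0.44. The largest rises were those of Ifit1, which binds foreign RNA (5.26 ± 0.18), of the RNA sensor Ifih1 (3.37 ± 0.16) and of the RNA sensor Ddx58, or RIG-I (2.92 ± 0.15). Several of these are interferon-induced genes in their own right. The member called lower was Plcg1, a phospholipase (-0.84 ± 0.21, adjusted p = 0.0405), and its call was lost without spleen 1, 2 or 3 or without tumor 1 or 2 (adjusted p between 0.0571 and 0.172).

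Of 12 tested genes of other proteins that join, remove or bind ISG15, 1 was called higher and 1 lower. With the replicate block the counts were 1 and 5, and the median of the main fit was -0.24. Some of these genes also stand on other lists: Trim25 among the substrates, Ube2e2 among the E2 enzymes and Usp2 among the USP proteases. Trim25, a ligase that also places ISG15 and is itself induced by interferon, was higher by 1.18 ± 0.20 (adjusted p = 0.00681). Skp2, part of a ubiquitin ligase that marks USP18 for destruction, stood lower at -0.88 ± 0.22 (adjusted p = 0.0379), a call lost without any one of spleen 1 to 3 or tumor 1 or 2 (adjusted p between 0.067 and 0.162). Arih1, another ligase reported for ISG15, stood at 0.03 ± 0.20. Itgal and Itgb2, the chains of the integrin LFA-1 through which free ISG15 acts on lymphocytes, stood at -0.32 ± 0.19 and -0.33 ± 0.14 and were not called.

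**Figure D4:**
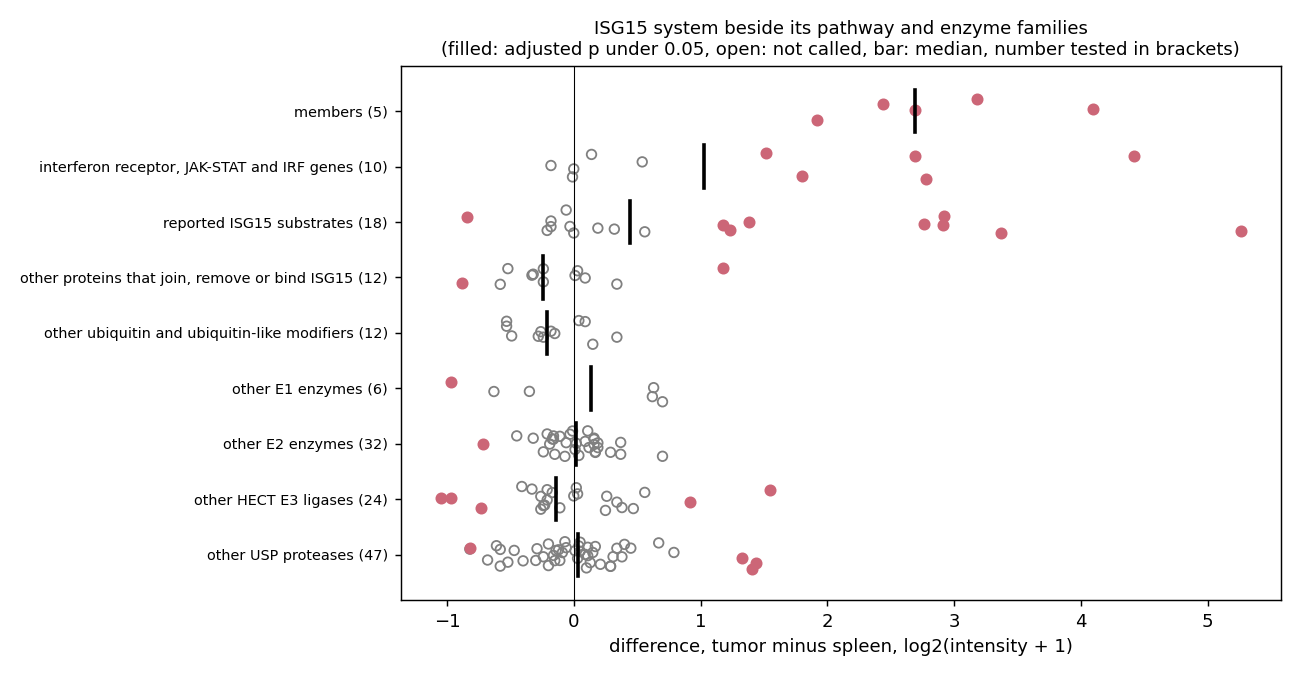
Difference, tumor minus spleen on the log2(intensity + 1) scale, of each tested gene in the 5-member ISG15 system and in 8 further lists; filled points were called at an adjusted p under 0.05, open points were not, and black bars are medians. The 5 members lie from 1.92 to 4.10, while the points of the 5 enzyme and modifier families lie between -1.05 and 1.55. Lists overlap, so a gene can appear in several.

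The members were then set beside the rest of their own protein families. In those 5 families, leaving the members out, 121 genes were tested, 5 were called higher (4.13%) and 6 lower (4.96%), close to the 5.73% and 4.85% of all genes tested. Their median difference was -0.01, and 0 of the 121 rose as far as Uba7, the member with the smallest rise. With the replicate block 20 of the 121 were called higher and 21 lower, beside 2153 (11.7%) and 3195 of the 18458 genes tested.

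Of the other ubiquitin and ubiquitin-like modifiers 12 were tested and limma called 0 in either direction (1 higher and 3 lower at an unadjusted p under 0.05, and the same 1 and 3 as counts with the replicate block). Their median was -0.21 and their differences ran from -0.53 to 0.34. The smallest p-values belonged to Map1lc3b, the autophagy modifier (-0.53 ± 0.19), and Sumo3 (-0.49 ± 0.16), which were called lower with the block (adjusted p = 0.00516 and 0.0118). Both were also called with quantile normalization (adjusted p = 0.00903 and 0.0408) and among numbers 1 and 2 alone (0.0353 and 0.0456). Nedd8, the modifier of cullin ligases, stood at -0.28 ± 0.19.

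Of the other E1 enzymes 6 were tested, with 0 called higher and 1 lower by limma (3 and 2 at an unadjusted p under 0.05, 3 and 2 with the block). Atg7, the E1 of autophagy, was lower at -0.97 ± 0.18 (adjusted p = 0.0109, or 0.0628 without tumor 1). Uba3 (0.70 ± 0.24), Nae1 (0.63 ± 0.17) and Uba6, an E1 of ubiquitin (0.62 ± 0.23), were not called in the main fit. They are the only E1s of the list with positive differences, and 3 E1s were called higher with the block. With quantile normalization, median centring or cyclic loess 3 were called higher as well. Uba1, the main E1 of ubiquitin, was not analysed here.

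Of 32 other E2 enzymes tested, 0 were called higher and 1 lower by limma (1 and 1 at an unadjusted p under 0.05, 3 and 3 with the block), with a median of 0.01. Ube2l3, the closest relative of Ube2l6, which works with ubiquitin, had levels of 11.21 ± 0.12 in spleen and 11.38 ± 0.16 in tumor, a difference of 0.17 ± 0.15 (-0.18 to 0.52) that was not called. Its 3 probe sets stood at 0.17, 0.18 and 0.30. The E2 called lower was Ube2h, at -0.72 ± 0.17 (adjusted p = 0.0277). That call was lost without spleen 2 or 3, without tumor 1 or 3 and among numbers 1 and 2 (adjusted p between 0.0585 and 0.122), as it was with cyclic loess (0.0556). The second, dimmer Ube2h probe set stood at 0.01, and the mean of both gave -0.35 (adjusted p = 0.524).

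Of 24 other HECT ligases tested, 2 were called higher and 3 lower (5 and 3 with the block), with a median of -0.14. Herc3, a small HERC ligase like Herc6, had levels of 7.01 ± 0.07 and 7.92 ± 0.12, a difference of 0.92 ± 0.14 (0.59 to 1.24, adjusted p = 0.00452). Arel1, a ligase known for restraining apoptosis, was higher by 1.55 ± 0.23 (adjusted p = 0.00395), and its second, dimmer probe set stood at 0.58. Nedd4 (-1.05 ± 0.22), Hectd3 (-0.97 ± 0.18) and Wwp1 (-0.73 ± 0.17) were lower. These 3 calls were lost without tumor 1 (adjusted p = 0.0841, 0.0560 and 0.0883). Nedd4 also lost it without tumor 2 (0.0589), and Wwp1 without spleen 1, 2 or 3 or tumor 2 (up to 0.104) and among numbers 1 and 2 (0.0708).

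Of 47 other USP proteases tested, 3 were called higher and 1 lower (8 and 10 with the block), with a median of 0.03. Usp42 was higher by 1.44 ± 0.21 (adjusted p = 0.00304) and Usp25, which is known to act in antiviral signalling, by 1.41 ± 0.16 (adjusted p = 0.000871). Usp12 was higher by 1.33 ± 0.25 (adjusted p = 0.0115, or 0.0518 without spleen 2), and its probe sets stood at 1.33 and 1.38. Usp10 was lower at -0.82 ± 0.18 (adjusted p = 0.0238), a call lost without spleen 1 or 2 or tumor 1 or 2 (adjusted p between 0.0522 and 0.115).

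The genes whose profile over the 6 arrays was most like that of each member were found by the root mean square difference between log2 profiles, each centred on its own mean. With 2 groups, this measure is set mostly by the size of the difference and by the shift of the arrays numbered 3. Isg15 had no close match: the nearest were Nos2, the inducible nitric oxide synthase (0.229), Ifnb1, or interferon beta (0.252), and Phf11a (0.276). Herc6 was nearest to Casp4 (0.092), Trim21 (0.101) and Ifna9 (0.101). Usp18 was nearest to Il15ra (0.079), Heatr9 (0.092) and A530064D06Rik (0.098). For Uba7 the nearest were Marchf5 (0.029), Lrp8 (0.044) and Mylk (0.045), and for Ube2l6, whose arrays numbered 3 stood apart most, Tnfsf8 (0.174), Lap3 (0.180) and Tnfaip8l3 (0.185).

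The sort was checked against the genes behind it. Of the genes behind the gate, Itgam, which encodes CD11b, was called lower in tumor, from 10.04 ± 0.15 to 9.19 ± 0.22 (adjusted p = 0.015). Ly6c2, which encodes Ly6C, was called higher, from 6.81 ± 0.58 to 8.29 ± 0.40 (adjusted p = 0.0186). Of further monocyte genes, Lyz2 (lysozyme) read 13.27 ± 0.09 in spleen and 13.16 ± 0.08 in tumor and Cx3cr1, a chemokine receptor gene, read 5.60 ± 0.37 and 5.54 ± 0.39, and neither was called. Of the 9 monocyte genes tested, 3 were called higher: Ly6c2, Cd14 (2.01 ± 0.17) and the Fc receptor gene Fcgr1 (3.56 ± 0.16). The 3 called lower were Itgam, Csf1r (-0.57 ± 0.15, adjusted p = 0.0428) and Ccr2, a chemokine receptor gene that went from 6.86 ± 0.09 to 5.93 ± 0.15. Itgax, which encodes the CD11c that the sort selected against, read 11.16 ± 0.12 and 10.31 ± 0.17. In both groups it read above Itgam and Ly6c2, though on a different probe set. Of macrophage markers, Mrc1 (10.78 in spleen, 10.62 in tumor), Adgre1 (10.46, 9.89) and Mertk (9.98, 9.99) were bright, while Cd5l (4.79, 4.38) was dim. Of dendritic cell markers besides Itgax, Cd209a (9.24, 8.83) was bright and Xcr1 (4.59, 4.30) dim. How pure the sorted cells were was not tested. Of 61 tested markers of 12 other cell types, 4 were called higher in tumor and 4 lower, with a median difference of -0.05. Their summed intensity ran from 10601 to 13652 on spleen arrays and from 9748 to 13379 on tumor arrays. Conventional dendritic cell markers had 2 of 7 called higher and Itgax called lower. Plasmacytoid dendritic cell markers, of a cell rich in interferon-induced RNA, had 1 of 5 called higher (Tcf4, 1.92 ± 0.23), while Siglech, the defining one, lay near the floor at 4.52 ± 0.45 and 4.62 ± 0.57. Their summed intensity ran from 288 to 415 in spleen and from 729 to 1187 in tumor. Siglech, Ccr9, Ly6d and Pacsin1 differed by between -0.19 and 0.23, so the rise of the sum lay mostly in Tcf4. Among endothelial markers 1 of 4 was called higher, Kdr (2.88 ± 0.23), with sums of 173 to 215 and 427 to 624. Cdh5 (-0.07), Pecam1 (-0.20) and Tek (-0.11) were not called. The part of these cells in the rises of the members was not tested.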

How the data were processed

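The authors deposited 1 table with 1 linear intensity per probe set and array (41345 probe sets). RMA, which corrects background, normalizes and summarizes probes, is named in the submitters' processing notes, and its version, settings and genome build were not found in the labels or headers. Per the labels' protocols, RNA integrity numbers were above 8.5. Array medians of log2(intensity + 1) were 4.50 or 4.51 for numbers 1 and 2 and 4.73 and 4.76 for number 3, so the arrays do not share 1 distribution. Whether number 3 was processed separately is not stated.

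Genes were named from GEO's platform annotation, using the 23521 probe sets with 1 symbol (1814 have several and 16010 are not listed). Of several probe sets of a gene, that of highest mean was used. Genes were tested where 3 or more arrays read above their own 25th percentile. limma 3.58.1 in R 4.3.3 compared tumor with spleen on log2(intensity + 1), with group as the only term, two-sided, with Benjamini-Hochberg adjustment over all genes tested. The route was tested on simulated data with independent noise for each gene and array. Those data held no shared shift of the arrays numbered 3, unlike the arrays here. The number of arrays limits the precision.

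Members and lists were chosen with earlier results of these data known. Named genes were the members and up to 3 called genes per direction of each pathway or family list (or the 2 of smallest p). The 3 nearest profiles of each member and the relatives Ube2l3, Herc3 and Uba1 were also named. For markers the rule was the 2 highest of each cell type, but not all of these are printed. Others, such as Ifnar1, Arih1, Nedd8, Siglech and further markers such as Mertk, Cd5l and Xcr1, were named after their values were seen. Marker lists were of neutrophils, B, T and NK cells, plasmacytoid and conventional dendritic cells, macrophages, melanocytes, epithelium, fibroblasts, endothelium and red cells. In each of those 12 lists at most 2 genes were called higher.

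Equal array numbers were checked for pairing: deviations from group means correlated across genes at 0.36, 0.44 and 0.71 between equally numbered arrays, but also at 0.47 between spleen 1 and tumor 2. The numbers were therefore used as a block in an alternative. The alternatives are described after the results, and a term for number 3 was added after seeing the data.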

Additional observations from a re-analysis of the deposited data

How the results depend on the processing

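All 5 members stayed higher in tumor and called under each of the 19 alternatives run. Over the 13 that keep every array or drop both arrays numbered 3, differences lay between 3.95 and 4.18 for Isg15, 1.85 and 2.00 for Uba7, 2.28 and 2.55 for Ube2l6, 3.12 and 3.33 for Herc6, and 2.62 and 2.75 for Usp18. With single arrays left out they lay between 3.88 and 4.25, 1.86 and 2.02, 2.12 and 2.82, 3.04 and 3.37, and 2.64 and 2.74, and the largest adjusted p was 0.0172 (limma, Ube2l6 without spleen 1). Of 813 values for 43 named genes, 767 kept direction and side of the threshold, 32 lost a call, 14 gained one and 0 reversed. These 43 were the members, the genes chosen by rule from the pathway and family lists, Ube2l3 and the nearest profiles. Cell type markers and genes named after their values were seen were not among them.

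Counts over all genes moved more. The 1953 calls (1057 higher, 896 lower) became 3508 with quantile normalization (1923 lower), 3290 with median centring (1807 lower), 3182 with cyclic loess (1852 higher), 7098 with array weights (2865 higher, 4233 lower), 5348 with the replicate block (2153 higher, 3195 lower), 2946 among numbers 1 and 2 (1569 lower) and 5468 with the term for number 3 (2181 higher, 3287 lower). With single arrays left out they ran from 1004 (without tumor 1) to 1931, with 662 to 1246 higher and 294 to 1050 lower. The cause was not tested. The block changed no call of a member. Probe sets near background have compressed differences.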

Other observations

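The nearest protein-coding genes on each side of the members, taken by order in the RefSeq table (assembly GRCm38.p6) after the data had been seen, gave these values. Of the 4 neighbours of Isg15, 3 were called higher in tumor by limma: Plekhn1 (1.74, adjusted p = 0.0055), Agrn, which encodes a matrix proteoglycan (1.15, adjusted p = 0.00467), and Perm1 (0.94, adjusted p = 0.0145). Rnf223 stood at -0.13. Of all genes tested 5.73% were called higher, and the neighbours were not run through the alternatives. Beside Herc6, the mitochondrial phosphatase gene Ppm1k was called higher (2.69, adjusted p = 0.000219), and Vmn1r20, Pyurf and Lancl2 were not called. Of the 4 neighbours each of Uba7, Ube2l6 and Usp18, 0 were called, with Serping1, the complement inhibitor next to Ube2l6, at 0.42 (adjusted p = 0.208).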
